A study of Mus musculus with 2 samples.

Results

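The 50 cell cycle genes described here were chosen by name, from what they do in dividing cells, with earlier results of these data known. They make up 30 genes of G2 phase and mitosis (G2/M), 14 genes of S phase, 4 cyclins of G1 and G1/S and 2 genes of wider use, Hmgb2 and Stmn1. All 50 were found among the 19219 genes listed in both libraries. Liver NPCs came from 1 normal mouse injected with olive oil and from 1 mouse with fibrosis, injected with CCl4 (15% in olive oil). Both were male C57BL/6 mice of 8 weeks that received 2 intraperitoneal injections a week for 6 weeks, with 0.6 µl of the CCl4 solution per g of body weight, and cells were taken 48 h after the last one. Hepatocytes had been spun out at low speed, so the hepatocytes seen here are those that remained. Each mouse gave 1 scRNA-seq library. No value has a biological replicate, no test between the conditions was made, and every difference is a difference between 2 mice. All intervals are 95% intervals for counting error only.

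A cell that enters the cycle first makes D-type cyclins, which with their kinases release the E2F factors. E2F targets include cyclin E and the S phase genes, whose products license and fire origins, build the replication fork and supply deoxynucleotides. The G2/M genes follow later in the cycle and drive chromosome condensation, spindle assembly, segregation and cytokinesis; many of them carry CCAAT boxes and a CHR element in their promoters, through which the DREAM and MuvB complexes act. In the adult liver most cells rest outside the cycle, while HSCs divide when they turn into MFs after injury, and dendritic cells, Kupffer cells and ECs can divide in place.

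The promoter stretches below are shown because they hold the CHR and E2F letters, whose shares differ between the G2/M and the S list, and CCAAT, common in both. CCAAT, the CHR letters TTTGAA and TTCGAA, and the E2F letters TTTCCCGC, TTTCGCGC, TTTGCCGC and TTTGGCGC were searched on both strands in RefSeq windows of GRCm38.p6 that run from 250 bases before to 50 after the first listed start of each gene. Windows were given for 39 of the 50 genes, 25 of the 30 G2/M and 12 of the 14 S genes. CCAAT was found in 84% of the G2/M and 75% of the S windows, against 37.9% of the windows of 27025 genes. The CHR letters were found in 80% of the G2/M windows and 16.7% of the S windows, against 19.4% of all windows. The E2F letters stood in 4% of the G2/M and 50% of the S windows, against 2.32% of all. CCAAT and CHR letters occurred together in 76% of the G2/M windows and in 7.7% of all windows. A match is a description of letters and not a bound site. For the 4 cyclins and for Hmgb2 and Stmn1 too few windows were given for a share. The stretches run 5′ to 3′ on the strand of the gene and end at the base before the start; capitals mark the matches on either strand. Top2a lies at chr11:99024190-99024289 (minus strand), Kif11 at chr19:37376322-37376381 (plus), Mki67 at chr7:135716380-135716579 (minus), Mcm5 at chr8:75109349-75109508 (plus) and Mcm6 at chr1:128359706-128359825 (minus). No base shown is in an annotated exon.
Top2a: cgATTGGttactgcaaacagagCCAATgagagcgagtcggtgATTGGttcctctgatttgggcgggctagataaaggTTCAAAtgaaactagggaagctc
Kif11: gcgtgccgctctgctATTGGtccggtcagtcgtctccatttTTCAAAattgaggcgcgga
Mki67: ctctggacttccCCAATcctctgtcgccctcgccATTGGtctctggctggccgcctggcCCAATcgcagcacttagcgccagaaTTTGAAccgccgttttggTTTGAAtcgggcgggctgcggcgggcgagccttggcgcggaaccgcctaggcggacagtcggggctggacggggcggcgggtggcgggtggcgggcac
Mcm5: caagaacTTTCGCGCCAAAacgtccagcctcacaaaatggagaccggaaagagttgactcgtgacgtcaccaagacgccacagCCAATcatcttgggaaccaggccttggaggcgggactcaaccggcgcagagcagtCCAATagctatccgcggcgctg
Mcm6: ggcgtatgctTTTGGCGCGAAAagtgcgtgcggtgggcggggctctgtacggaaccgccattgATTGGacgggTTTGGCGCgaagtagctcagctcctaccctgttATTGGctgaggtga
In Top2a, a topoisomerase that untangles sister chromatids, 3 CCAAT boxes of the stretch shown precede a CHR match, and Kif11, a spindle motor, has 1 of each. Mki67, the Ki-67 protein that coats mitotic chromosomes, has 3 CCAAT boxes and 2 CHR matches. Mcm5 and Mcm6, subunits of the replicative helicase, hold E2F letters on both strands that overlap each other, farther from the start than their CCAAT boxes, and Mcm6 has 1 more E2F match between its CCAAT boxes.

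The unit of measurement was the UMI, a tag that counts 1 captured transcript 3′ end, so gene length does not enter the level. The normal library held 44062632 UMIs and the fibrosis library 53288463, with 898 to 75847 and 815 to 116430 per cell. After cells with a mitochondrial share of at least 10% were left out, 7471 normal and 6132 fibrosis cells remained, with a median of 4226 and 5775.5 UMIs, and 15 barcodes occurred in both libraries. Clusters were made in each library without any cell cycle or histone gene and were named from marker genes, so that class names mean "like" in their markers; 1083 normal and 1072 fibrosis cells got no name. Deeper cells show more different genes at the same makeup, so for shares each cell was thinned to 1000 UMIs. Fibrosis cells were deeper over all cells. By their median they were shallower in the B-cell-like, NK/T-like, dendritic-like, neutrophil-like and plasmacytoid-dendritic-like classes. Levels are UMIs of a gene or list per 10000 UMIs of the class.

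Fibrosis NPCs held more cells with several G2/M genes, and of the 10 classes compared the HSC-like (stellate-like) cells showed the largest gap. Over all cells deep enough, 4.66% of the normal (348 of 7469) and 8.61% of the fibrosis cells (493 of 5728) held UMIs of at least 3 different G2/M genes, with intervals of 4.19 to 5.16% and 7.89 to 9.36%. Thinning left out 2 normal and 404 fibrosis cells as too shallow. Without thinning the shares were 20.4% and 50.5%. For at least 3 S genes the shares were 2.5% (187 cells) and 4.56% (261 cells). These shares over all cells also depend on the mix of classes, which differed. Erythroid-like cells (348) were named in the normal library only, and hepatocyte-like cells (149) in fibrosis only. Stellate-like cells made up 139 of the 7471 normal and 408 of the 6132 fibrosis cells. Mature neutrophils do not divide, while their precursors do, and 7.02% of the neutrophil-like fibrosis cells (12 of 171, median 1727 UMIs) and 1.49% of the normal (3 of 202, median 2664.5 UMIs) held 3 G2/M genes. That fibrosis value (interval 3.68 to 11.9%) came mostly from the shallow cluster led by the granule genes Camp, Ngp and Ltf, with 8 of 60 cells (13.3%, median 1106 UMIs), and less from the cluster led by Retnlg and S100a9, with 4 of 111 (3.60%). As a cautious cut, shares of fibrosis classes up to 7.02% are not read as a difference at this limit. Whether the neutrophil-like cells include dividing precursors was not tested, so the cut is not a level of resting cells. At a limit of 6 G2/M genes, chosen after the neutrophil-like values had been seen, no neutrophil-like cell remained in either library, which allows up to 1.49% of the normal and 1.75% of the fibrosis cells. At this limit the 2 libraries held 2.60% (194 cells; 2.25 to 2.98%) and 3.02% (173 cells; 2.59 to 3.50%), and the intervals overlap.

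Stellate-like cells, named from markers of the resident pericytes that turn into MFs, showed the clearest gap. The class is not read as pure HSCs, since it also held endothelial markers (values below). At least 3 G2/M genes were held by 6.47% of the normal (9 of 139; 3.00 to 11.9%) and 23.9% of the fibrosis stellate-like cells (97 of 406; 19.8 to 28.3%). At 6 genes the shares were 5.04% (7 cells; 2.05 to 10.1%) and 13.8% (56 cells; 10.6 to 17.5%), with intervals that did not overlap. S phase genes gave a smaller share, with 0.719% (1 cell) and 4.43% (18 cells) at 3 genes and none at 6. The 2 fibrosis clusters of this class had 25.0% (53 of 212) and 22.7% (44 of 194) at 3 genes. At 6 genes they had 10.4% and 17.5%, and the G2/M list stood at 24.8 and 37.3 UMIs per 10000. Depth differed, with a median of 9447 UMIs in the normal and 19647 in the fibrosis class, and cells past either list's limit were deeper (median 31655 UMIs) than the others (17817 UMIs) in fibrosis. Their median doublet score was 0.0940 in both in fibrosis, and 0.158 against 0.0613 in the normal library; the part of doublets there was not tested.

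**Figure D1:**
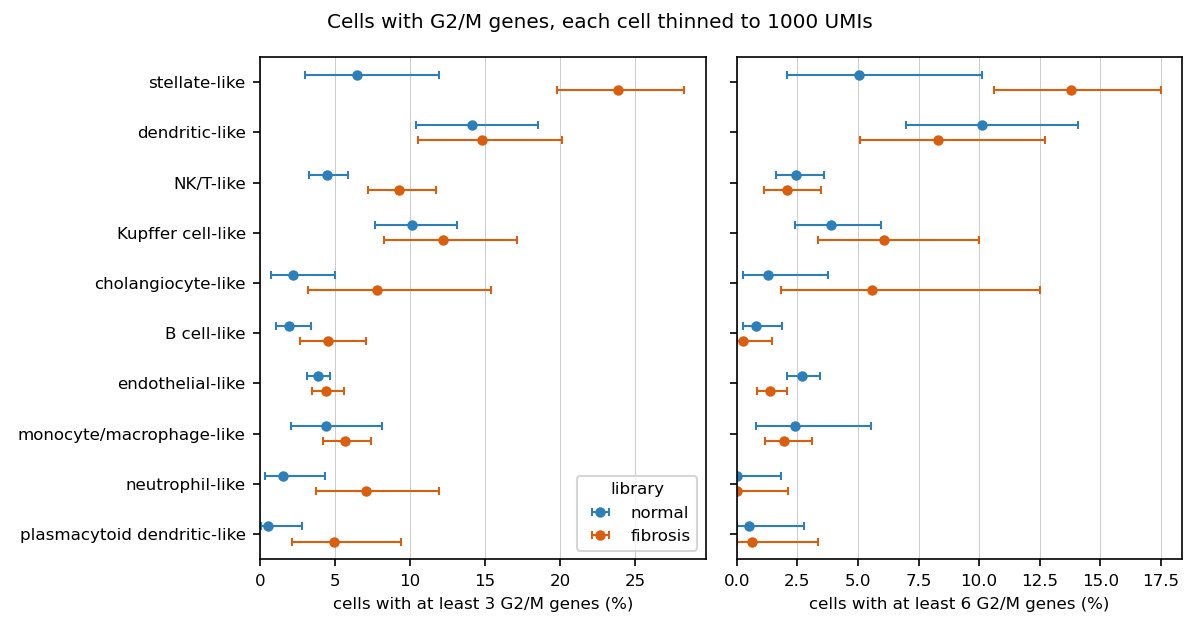
Share of cells in each class (%) with UMIs of at least 3 (left) and at least 6 (right) different G2/M genes after thinning to 1000 UMIs; points are the normal (blue) and fibrosis (orange) library, bars exact binomial 95% intervals. Stellate-like cells move from 6.47 to 23.9% on the left, and neutrophil-like cells drop to 0 on the right.

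In dendritic-like cells the share with 3 G2/M genes was high in both mice, 14.1% of normal (43 of 306) and 14.8% of fibrosis cells (34 of 229), and at 6 genes it was 10.1% and 8.30%. Kupffer-cell-like cells, the resident macrophages, held 10.1% (52 of 513) and 12.2% (28 of 230), and 3.90% and 6.09% at 6 genes. In both classes the intervals of the 2 mice overlapped. NK/T-like cells went from 4.43% (45 of 1016) to 9.23% (62 of 672) at 3 genes and held 2.46% and 2.08% at 6, where the intervals overlapped. Endothelial-like cells, which join LSECs and ECs of vessels, had 3.83% (92 of 2404) and 4.41% (65 of 1473) at 3 genes. At 6 genes their order turned, with 2.70% of normal (65 cells; 2.09 to 3.43%) and 1.36% of fibrosis cells (20 cells; 0.831 to 2.09%). Their share with 3 S genes was 2.20% (53 cells; 1.66 to 2.87%) and 5.36% (79 cells; 4.27 to 6.64%). By these shares endothelial-like cells stood higher in fibrosis on S genes and not on G2/M genes. For G2/M genes, 1 normal cluster of 344 cells held 36 of the 92 cells at 3 genes and 28 of the 65 at 6. The direction without that cluster was not tested. B-cell-like cells (1.94% and 4.49%), monocyte/macrophage-like cells (4.35% and 5.65%) and plasmacytoid-dendritic-like cells (0.505% and 4.88%) stayed under the fibrosis share of the whole neutrophil-like class. Their fibrosis shares were above the 3.60% of its cluster led by Retnlg and S100a9. In each of these classes the intervals of the 2 mice overlapped. The normal B-cell-like and monocyte/macrophage-like shares were above the 1.49% of normal neutrophil-like cells.

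Summed over the G2/M list, levels differed most in cholangiocyte-like and stellate-like cells. The G2/M list stood at 13.9 UMIs per 10000 in normal and 30.3 in fibrosis stellate-like cells, a ratio of fibrosis over normal of 2.18 (2.09 to 2.28). Dendritic-like cells had 23.8 and 24.7, a ratio of 1.04 (1 to 1.08). Cholangiocyte-like cells, the epithelium of the bile ducts, had 3.97 and 15.2, a ratio of 3.84 (3.59 to 4.11). Stellate-like and cholangiocyte-like cells were the classes whose G2/M ratio passed 2. The G2/M ratio was 1.48 in neutrophil-like, 1.14 in NK/T-like, 1.11 in Kupffer-cell-like and plasmacytoid-dendritic-like, 1.02 in B-cell-like, 0.974 in monocyte/macrophage-like and 0.837 (0.815 to 0.859) in endothelial-like cells. The S list went from 4.08 to 10.1 UMIs per 10000 in cholangiocyte-like cells, a ratio of 2.47. It was 1.97 in plasmacytoid-dendritic-like, 1.75 (1.70 to 1.81) in endothelial-like, 1.58 in stellate-like, 1.49 in neutrophil-like, 1.45 in B-cell-like, 1.43 in NK/T-like, 1.20 in dendritic-like, 1.02 in monocyte/macrophage-like and 0.821 (0.766 to 0.880) in Kupffer-cell-like cells. In the neutrophil-like class 3 normal cells held 53.6% of the S UMIs, and its S ratio was 2.63 without the 3 top cells and 3.39 without high doublet scores, above the 2.06 and 2.03 of cholangiocyte-like cells. The S ratio was above the G2/M ratio in 7 of the 10 classes, and below it in stellate-like, cholangiocyte-like and Kupffer-cell-like cells. In neutrophil-like and monocyte/macrophage-like cells the intervals of the 2 ratios overlapped. Without the 3 top cells the monocyte/macrophage-like order turned, with 1.28 for S and 1.32 for G2/M. Near 1 the direction hung on the setting. Counted per cell instead of per UMI, the G2/M ratio was 1.24 in endothelial-like, 0.931 in NK/T-like and 0.809 in dendritic-like cells. In dendritic-like cells it was 0.648 (0.625 to 0.673) at a cluster resolution of 2.5. At a mitochondrial limit of 5% the G2/M ratio was 0.838 in Kupffer-cell-like cells, against 2.36 per cell. The S ratio of Kupffer-cell-like cells was 1.74 per cell and 0.485 at that limit, and that of monocyte/macrophage-like cells 1.95 and 1.69. Per cell the G2/M ratio of stellate-like cells was 4.47 (4.27 to 4.67) and their S ratio 3.23 (2.98 to 3.51).

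**Figure D2:**
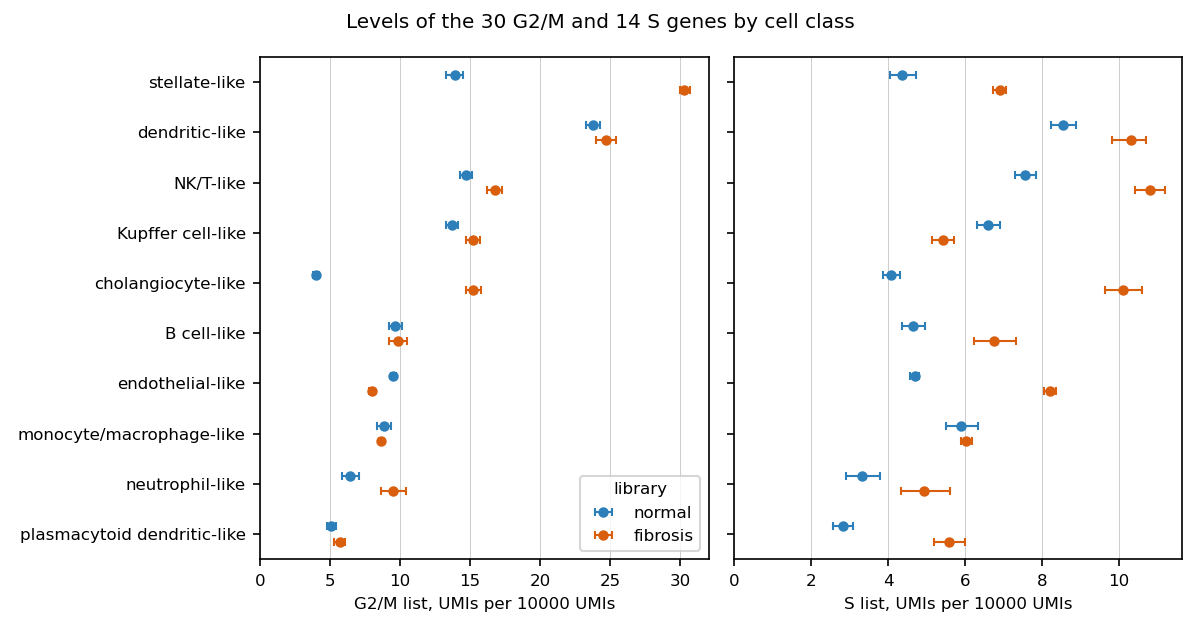
Summed level of the 30 G2/M genes (left) and 14 S genes (right) in UMIs per 10000 UMIs of each class; points are the normal (blue) and fibrosis (orange) library, bars exact Poisson 95% intervals. The G2/M list reaches 30.3 in fibrosis stellate-like cells, and the S list of endothelial-like cells moves from 4.69 to 8.21.

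Single genes were compared by their ratio, and a gene was called past the fold when the ratio was at least 2, or at most 0.5, with an interval that excluded 1, among genes with at least 10 UMIs in the class over both libraries. In stellate-like cells all 50 genes had 10 UMIs; 27 were at least 2 times higher in fibrosis, against 5.89% of the 13534 genes compared there, and 0 were at most 0.5 times, against 6.44%. By list these were 20 of the 30 G2/M genes (median ratio of the list 2.27), 5 of the 14 S genes (1.87) and 2 of the 4 cyclins, while the median over all genes was 1.03. Cdk1, the kinase of mitotic entry, stood at 0.400 UMIs per 10000 in normal and 1.21 in fibrosis cells, a ratio of 3.02 (2.33 to 3.98). Its partner Ccnb1 had the largest ratio of the G2/M list, 4.83 (2.85 to 8.92), from 14 UMIs in normal and 407 in fibrosis cells. Ccna2 and Ccnb2, the other mitotic cyclins, had ratios of 2.18 and 2.04. All members of the cyclin-Cdk1 group thus lay past the fold.

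Among the mitotic kinases and checkpoint genes, Plk1 (ratio 2.21), Aurka (3.05), Bub1 (2.33) and Bub1b (3.23) passed the fold in stellate-like cells. Aurkb (1.69) and Birc5 (1.59), both of the chromosomal passenger complex, did not. Of the anaphase genes, the ubiquitin-conjugating enzyme Ube2c went from 0.649 to 1.58 UMIs per 10000, a ratio of 2.43, and Cdc20 had a ratio of 1.77. At the kinetochore, Cenpe (2.42) and Cenpf (2.22) passed, and Cenpa (1.67), the centromere histone, did not. The spindle and cytokinesis genes past the fold had ratios of 3.28 for Kif20a, 2.67 for Prc1, 2.58 for Anln, 2.5 for Aspm, 2.44 for Kif11, 2.42 for Tpx2, 2.34 for Hmmr and 2.28 for Racgap1. Kif23 (1.90), Nusap1 (1.81) and Tacc3 (1.67) stayed under the fold.

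Of the mitotic chromosome genes of stellate-like cells, Top2a went in level from 1.64 (1.44 to 1.86) to 3.86 (3.73 to 3.99) UMIs per 10000, a ratio of 2.36. A Top2a UMI was found in 6.47% of the thinned normal and 17.7% of the fibrosis cells, against 4.46% and 9.36% of the neutrophil-like cells. Mki67 went from 1.20 to 2.33, a ratio of 1.94 (1.67 to 2.27), just under the fold. A Mki67 UMI was found in 3.60% and 16.3% of the cells, against 3.47% and 2.34% of neutrophil-like cells. The condensin subunits Smc4 (1.82) and Smc2 (1.53) had smaller ratios. The 5 S genes past the fold were Uhrf1 (2.61), which keeps DNA methylation through replication, Cdc6 (2.35), Mcm5 (2.23), Gins2 (2.10) and Mcm4 (2.06). Pcna, the sliding clamp, had 0.951 and 0.912, a ratio of 0.960 (0.804 to 1.15), the lowest of the S list, followed by Mcm7 at 1.04. The S genes of highest level were Rrm1 (1.11), a ribonucleotide reductase subunit, Pcna and Mcm3 (0.866) in fibrosis cells.

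The normal stellate-like value rested on few cells, since 3 of the 139 cells held 48% of its G2/M UMIs, against 7.45% in 3 fibrosis cells. Without the 3 cells with most G2/M UMIs in each library the ratio was 3.73. Of 6 marker lists of other cell types, 5 were lower in the fibrosis cells with 3 G2/M genes than in the other stellate-like cells. The 15 endothelial markers summed to 70.0 UMIs per 10000 there and 98.9 in the others, and the 13 Kupffer cell markers to 17.5 and 30.4. The neutrophil list had 3.74 and 3.43, and the 15 stellate markers summed to 139 and 153. Outside cells with 3 G2/M genes, stellate-like cells held the endothelial markers at 102 UMIs per 10000 (normal mouse) and 98.9 (fibrosis mouse). Endothelial-like cells held 238 and 235, and fibroblast-like fibrosis cells 10.2. Neutrophil-like (95.9) and plasmacytoid-dendritic-like fibrosis cells (93.4) came near the stellate-like value. The source of this endothelial RNA and its part in the stellate-like gap were not tested.

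**Figure D3:**
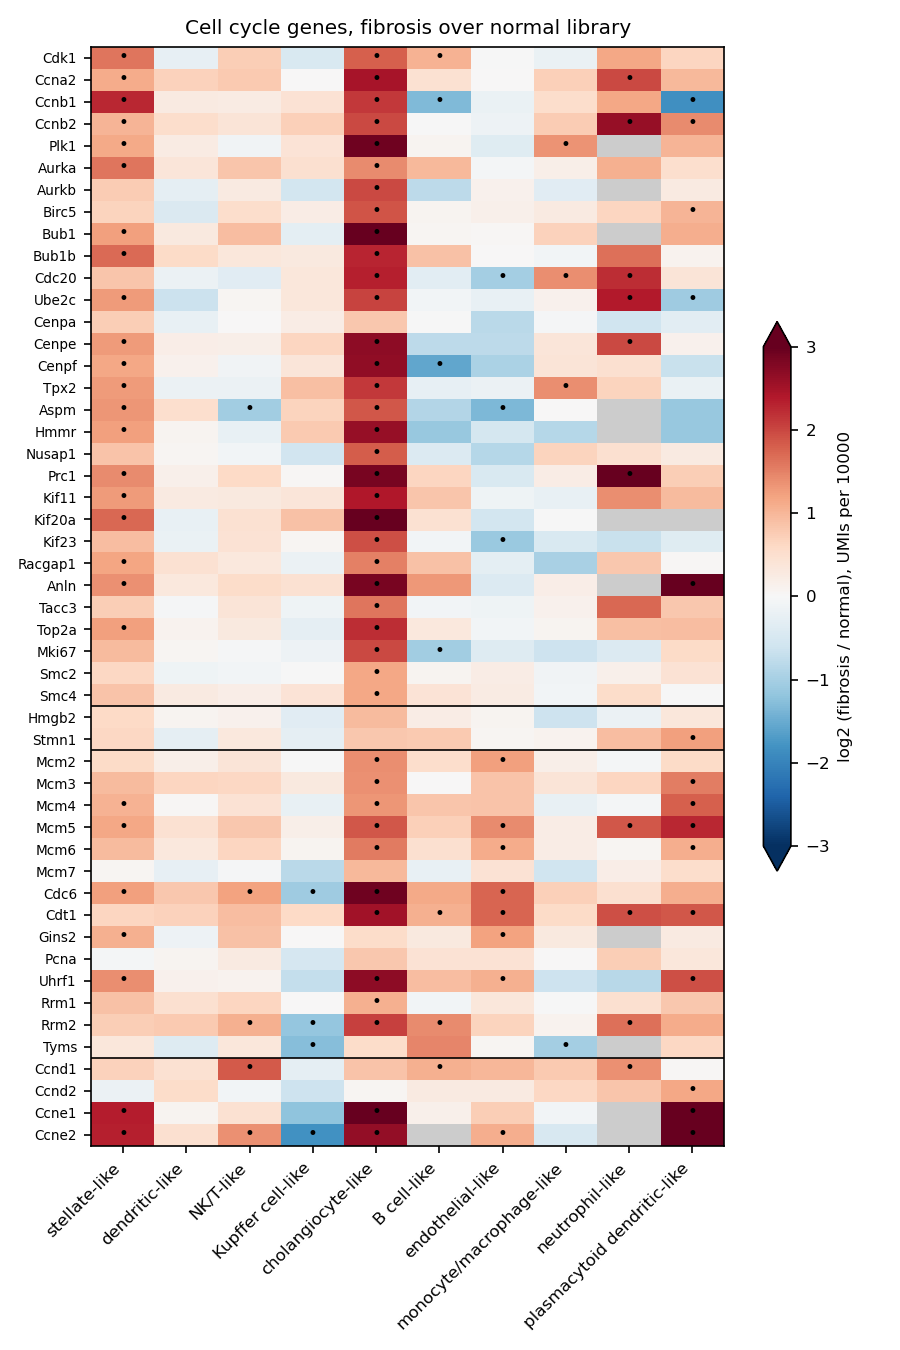
Ratio of fibrosis over normal level for each of the 50 genes (top to bottom, G2/M genes, then Hmgb2 and Stmn1, S genes and cyclins) in each class, as log2 colour; dots mark genes past the fold and grey marks genes under 10 UMIs. Dots fill the stellate-like (27) and cholangiocyte-like (41) columns and are absent from the dendritic-like column.

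Cholangiocyte-like cells had more genes past the fold, 41 of 50, against 5.52% of the 12978 genes compared, and 0 down, against 4.93%. These were 29 of the 30 G2/M genes (median ratio 4.15, all genes 1.04), 10 of the 14 S genes (2.60) and both E cyclins. Kif20a, a kinesin of the late spindle, had the largest ratio of the G2/M list, 13.1 (5.16 to 42.7), from 5 UMIs to 38. Bub1 (8.63), Plk1 (7.53), Prc1 (7.24), Anln (7.15), Cenpe (6.45), Cenpf (6.29) and Hmmr (6.15) followed. Ccna2 (5.59), Kif11 (5.26), Cdc20 (5.02), Bub1b (4.91), Top2a (4.62), Tpx2 (4.35), Ccnb1 (4.32) and Ube2c (4.09) lay near the middle of the list. Mki67 went from 0.389 to 1.53 UMIs per 10000, a ratio of 3.92. The lower end held Ccnb2 (3.97), Aurkb (3.96), Kif23 (3.79), Birc5 (3.70), Aspm (3.64), Nusap1 (3.51), Cdk1 (3.49), Tacc3 (3.03), Racgap1 (2.84), Aurka (2.67), Smc2 and Smc4 (both 2.22), and Cenpa (1.76) was the G2/M gene under the fold. Of the S genes, the licensing factors Cdc6 (7.53) and Cdt1 (5.78) and Uhrf1 (6.42) had the largest ratios. Rrm2 (4.17), Mcm5 (3.65), Mcm6 (2.95), Mcm2 (2.61), Mcm3 (2.60), Mcm4 (2.5) and Rrm1 (2.10) were past the fold too, and Mcm7 (1.97), Pcna (1.76), Tyms (1.47) and Gins2 (1.46) were not. This class was small, with 230 normal and 90 fibrosis cells, and 3 fibrosis cells held 63.1% of its G2/M UMIs. Without the 3 top cells of each library the ratio of the G2/M list was 2.54 and without the cells of highest doublet score 2.19, while it was 5.68 per cell and 4.86 at a mitochondrial limit of 5%. The S ratio was 3.66 per cell and 4.94 at that limit. The 15 endothelial markers summed to 24.0 UMIs per 10000 in the 7 fibrosis cells with 3 G2/M genes and 14.1 in the others, and to 50.1 and 21.2 in the normal class. The median doublet score was 0.12 in fibrosis cells past either limit and 0.0553 in the others. The part of these in the ratios was not tested. The share of cells with 3 G2/M genes was 2.17% (5 of 230; 0.710 to 5%) and 7.78% (7 of 90; 3.18 to 15.4%), with intervals that overlap, and with 3 S genes 1.74% (4 cells) and 10.0% (9 cells).

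In endothelial-like cells 7 of the 14 S genes and 1 of the 4 cyclins were higher in fibrosis past the fold, and no G2/M gene was. Of all 50 genes 8 were up, against 6.08% of the 14302 genes compared, and 3 down, against 8.89%, so the count down is below the share of all genes. The 8 were 7 S genes (median ratio of the S list 1.93, all genes 1.01) and Ccne2. Cdc6 and Cdt1, which load the MCM helicase on origins, had ratios of 3.37 (2.52 to 4.57) and 3.34 (2.80 to 3.99). Cdt1 itself went from 0.122 to 0.408 UMIs per 10000. The helicase subunits Mcm5 (2.66), Mcm2 (2.34) and Mcm6 (2.15), the GINS subunit Gins2 (2.30), Uhrf1 (2.08) and Ccne2 (2.13) made up the others. Mcm3 and Mcm4 (both 1.80), Rrm2 (1.58), Pcna (1.35), Mcm7 (1.34) and Rrm1 (1.27) had intervals above 1 but under the fold, and Tyms had a ratio of 1.04 (0.859 to 1.27). Tyms thus hardly differed, and Cdc6 and Cdt1 had the largest ratios of the list. The 3 genes down were Aspm (0.394; 0.302 to 0.509), a spindle pole protein, Kif23 (0.465), a motor of the central spindle, and Cdc20 (0.492), the activator of the anaphase-promoting complex. Top2a (0.973 and 0.926) and Cdk1 (0.305 and 0.301 UMIs per 10000) hardly differed.

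The endothelial-like G2/M level of the normal library was uneven. A cluster of 344 cells, led by Pimreg, Lyve1 and Ckap2, stood at 21.6 UMIs per 10000, with 3 G2/M genes in 10.5% of its cells. The other 6 normal clusters stood between 4 and 10.2, and the 3 fibrosis clusters between 6.44 and 8.40. No fibrosis cluster matched that level, although neither Pimreg nor Ckap2, both genes of mitosis, had been used for clustering. For the S list the fibrosis clusters stood at 6.5 to 8.91 and the normal ones at 2.62 to 7.60. Only the normal cluster of 344 cells reached the range of the fibrosis clusters. That cluster also held 6060 of the 13300 G2/M UMIs of the normal class, and the G2/M ratio without it was not computed.

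In Kupffer-cell-like cells 0 genes were up past the fold, against 3.68% of the 12133 genes compared, and 4 were down, against 8.52%. The 4 were Ccne2 (0.282), thymidylate synthase Tyms (0.412; 0.263 to 0.631), Rrm2 (0.446) and Cdc6 (0.480). The G2/M genes had a median ratio of 1.24 (all genes 0.997), from 0.676 for Nusap1 to 1.86 for Tpx2, none past the fold. Ube2c reached 1.30 UMIs per 10000 in fibrosis cells, next to Smc4 at 1.40, while Top2a (1.43) and Mki67 (1.30) led in normal cells. Monocyte/macrophage-like cells were different cells in each mouse, mostly a cluster led by F13a1 in the normal library (162 of 207) and one led by Gpnmb in fibrosis (480 of 875), and their G2/M ratio ranged from 0.543 with 30 principal components to 1.85 per cell. In this class 3 genes were up, against 9.76% of the 13128 genes compared, and 1 was down, against 9.8%. Those up were Tpx2 (2.62), Cdc20 (2.61) and Plk1 (2.53), each with 5 to 11 UMIs in the normal library, and Tyms (0.497) was down.

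NK/T-like, B-cell-like and dendritic-like cells had few genes past the fold. NK/T-like cells had 4 genes up, against 9.69% of the 13028 genes compared, and 1 down, against 7.6%. Those were Ccnd1 (3.60), Ccne2 (2.60), Cdc6 (2.29), Rrm2 (2.11) and, lower, Aspm (0.488). The class held the largest Smc4 level of the 10 classes in both mice, 2.62 and 3.02 UMIs per 10000. B-cell-like cells had 4 genes up, against 9.53% of the 11495 genes compared, and 3 down, against 7.54%. Rrm2 (2.68), Ccnd1 and Cdt1 (both 2.11) and Cdk1 (2.05) were higher in B-cell-like cells, and Cenpf (0.339), Ccnb1 (0.402) and Mki67 (0.483) lower, but 3 normal cells held 40.6% of the G2/M UMIs there, and without the 3 top cells the G2/M list ratio of 1.02 was 1.49, and without high doublet scores 1.23. Dendritic-like cells had 0 genes up, against 6.1% of the 12270 genes compared, and 0 down, against 6.42%. Their levels were high in both mice: Top2a had 3.12 and 3.35, Mki67 2.59 and 2.69 and Pcna 1.54 and 1.62 UMIs per 10000.

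Plasmacytoid-dendritic-like cells had 13 genes up, against 10.1% of the 11562 genes compared, and 2 down, against 6.55%. The S genes Mcm5 (4.77; 2.82 to 8.51), Uhrf1 (3.8), Cdt1 (3.63), Mcm4 (3.49), Mcm3 (2.88) and Mcm6 (2.13) were up, as were the cyclins Ccne1, Ccne2 (9.08; 2.11 to 81.8) and Ccnd2 (2.22), Stmn1 (2.36), Ccnb2 (2.66), Birc5 (2.04) and Anln. Anln (ratio 12.1; 1.72 to 525) and Ccne1 (10.9; 1.51 to 477) rested on 1 normal UMI each. Ccnb1 (0.279) and Ube2c (0.474) were down, and 4 of the 6 helicase subunits were among those up. The 8 fibrosis cells of the class with 3 G2/M genes also held more endothelial markers (186 against 93.4 UMIs per 10000 in the others) and stellate markers (20.3 against 5.77), and cells past either limit had a median doublet score of 0.102 against 0.0325; the part of these in the ratios was not tested. In the normal class 3 cells held 48.4% of the G2/M UMIs, and without the 3 top cells the G2/M ratio was 1.71. In neutrophil-like cells 39 of the 50 genes had 10 UMIs; 10 were up, against 12% of the 9579 genes compared, and 0 down, against 7.32%. The 10 were Prc1 (9.36; 2.78 to 49.2), Ccnb2 (6.09), Ube2c (5.22), Cdc20 (4.68), Ccna2 and Cenpe (both 3.93), Cdt1 (3.81), Mcm5 (3.61), Rrm2 (3.12) and Ccnd1 (2.60), with 3 to 9 normal UMIs for all but Ccnd1. In neutrophil-like fibrosis cells with 3 G2/M genes the 13 Kupffer cell markers summed to 76.4 UMIs per 10000 and the 14 monocyte/macrophage markers to 83.1, against 39.5 and 34.5 in the others, while the 15 endothelial markers had 49.8 and 95.9. The part of RNA from other cells in these ratios was not tested.

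The levels of the D cyclins differed more between classes than between the mice. Ccnd1, which carries growth signals to Cdk4 and Cdk6, had its largest level in plasmacytoid-dendritic-like cells of the normal mouse, 10.4 UMIs per 10000 (9.86 to 10.9), and in cholangiocyte-like cells of the fibrosis mouse, 13.6 (13 to 14.1). The lowest levels were in B-cell-like cells, 0.683 and 1.44, and the medians over the 10 classes were 2.68 and 3.81. Ccnd1 went from 7.45 to 13.6 in cholangiocyte-like, from 4.22 to 8.43 in endothelial-like and from 3.08 to 4.96 in stellate-like cells, while plasmacytoid-dendritic-like cells kept 10.4 and 10.5. In endothelial-like cells its ratio was 2 (1.94 to 2.06), just under the fold. Ccnd2 ranged from 0.992 in Kupffer-cell-like to 7.24 in NK/T-like cells of the normal library, with a median of 2.03. In fibrosis it ranged from 0.646 in Kupffer-cell-like to 7.62 in endothelial-like cells, with a median of 3.68. Stellate-like cells had 6.78 and 5.98, so their Ccnd2 (ratio 0.882; 0.825 to 0.943) was the one cyclin of that class with an interval below 1. The E cyclins were rare: in stellate-like cells Ccne1 had 2 and 62 UMIs (ratio 5.15; 1.37 to 43.5) and Ccne2 6 and 183 (5.07; 2.29 to 14). In cholangiocyte-like cells Ccne1 had a ratio of 10.9 (3.22 to 57.7) and Ccne2 one of 6.17.

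**Figure D4:**
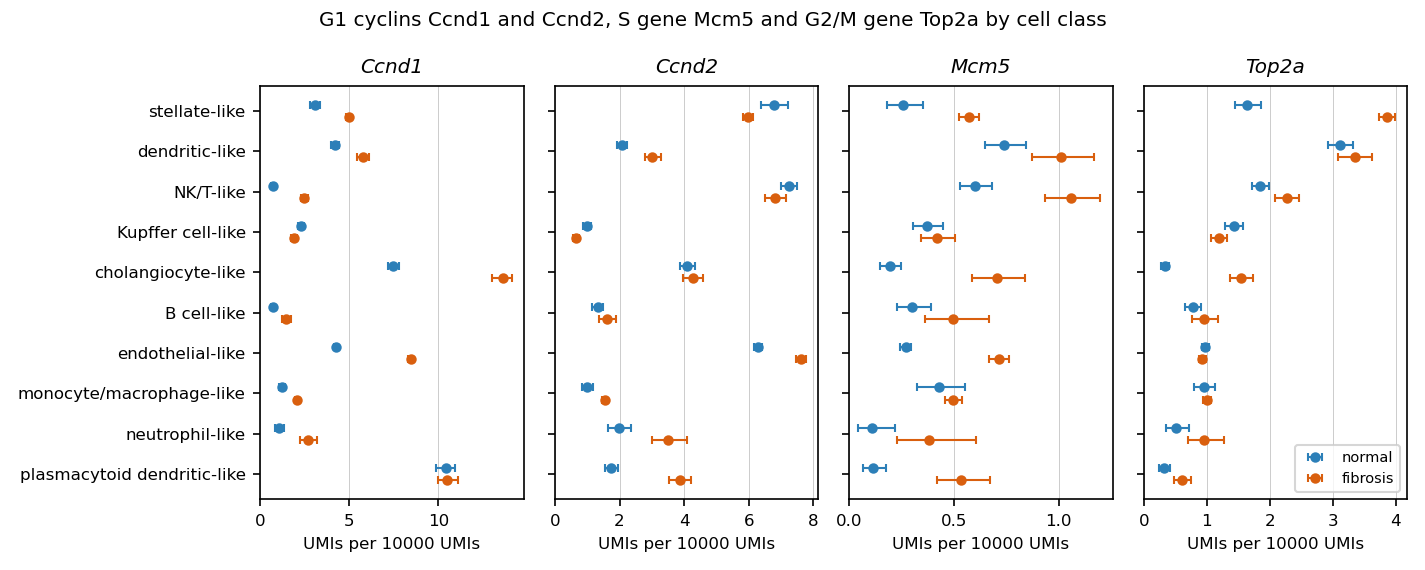
Level of the G1 cyclins Ccnd1 and Ccnd2, the S gene Mcm5 and the G2/M gene Top2a in UMIs per 10000 UMIs of each class; points are the normal (blue) and fibrosis (orange) library, bars exact Poisson 95% intervals. Ccnd1 is high in plasmacytoid-dendritic-like cells of both mice (10.4 and 10.5), where Top2a is 0.323 and 0.609.

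The other genes with most UMIs varied over the 10 classes as follows. Hmgb2, a chromatin protein of wide use, ranged from 1.82 in cholangiocyte-like to 9.51 in dendritic-like cells of the normal library (median 3.79), with 7.69 in neutrophil-like cells. In fibrosis it ranged from 2.40 in endothelial-like to 9.96 in dendritic-like cells (median 3.82). A high Hmgb2 level thus did not go with the G2/M list in neutrophil-like cells. Stmn1, which destabilises microtubules, ranged from 0.379 to 3.38 (median 1.34) and from 0.894 to 3.34 (median 1.48), lowest in plasmacytoid-dendritic-like cells of both mice. Top2a ranged from 0.323 to 3.12 (median 0.962) and from 0.609 to 3.86 (median 1.09), with dendritic-like cells highest in normal and stellate-like cells in fibrosis. Mki67 ranged from 0.205 to 2.59 (median 1.03) and from 0.297 to 2.69 (median 0.970), highest in dendritic-like cells of both mice. Smc4 ranged from 0.643 to 2.62 (median 1.11) and from 0.917 to 3.02 (median 1.46). Cenpa had a different order, with B-cell-like cells highest in both, 1.24 and 1.23, and cholangiocyte-like cells lowest, 0.190 and 0.333. Of the S genes, Pcna ranged from 0.695 to 1.81 (median 0.996) and from 0.912 to 1.82 (median 1.35), a narrower spread than that of Top2a. Mcm3 ranged from 0.261 to 0.853 (median 0.497) and from 0.395 to 1.43 (median 0.789), highest in endothelial-like cells of the fibrosis mouse. Mcm5 ranged from 0.106 to 0.741 (median 0.285) and from 0.382 to 1.06 (median 0.552).

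How far a gene marks mitotic cells was measured by the share of its thinned UMIs that lay in cells with at least 3 other G2/M genes, which made up about 4.66% of the normal and 8.61% of the fibrosis cells. For the G2/M genes the median share was 57.8% in normal and 40.2% in fibrosis cells, and it was 20.4% and 17.4% for the S genes. Cenpf (76.9% and 60.3%), Hmmr (76.7% and 62.7%) and Nusap1 (67.6% and 65.2%) lay mostly in such cells. Mki67 had 69.1% and 58.6%, and Top2a 57.8% and 51.9%. Cenpa (19.8% and 16.9%) and Smc4 (20.1% and 20.6%) behaved like S genes, with most of their UMIs in other cells. Among the S genes Rrm2 (60% and 33.7%) and Uhrf1 (48% and 31.4%) stood out at the upper end, and Mcm3 (10.2% and 15.2%) was at the lower end in normal cells. Ccnd2 (2.73% and 5.16%) and Ccnd1 (4.51% and 6.05%) had no more UMIs in G2/M cells than those cells' share of all cells. The fibrosis shares of G2/M genes were mostly below the normal ones. The points share their library and depth, and the count of cells that define the share.

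**Figure D5:**
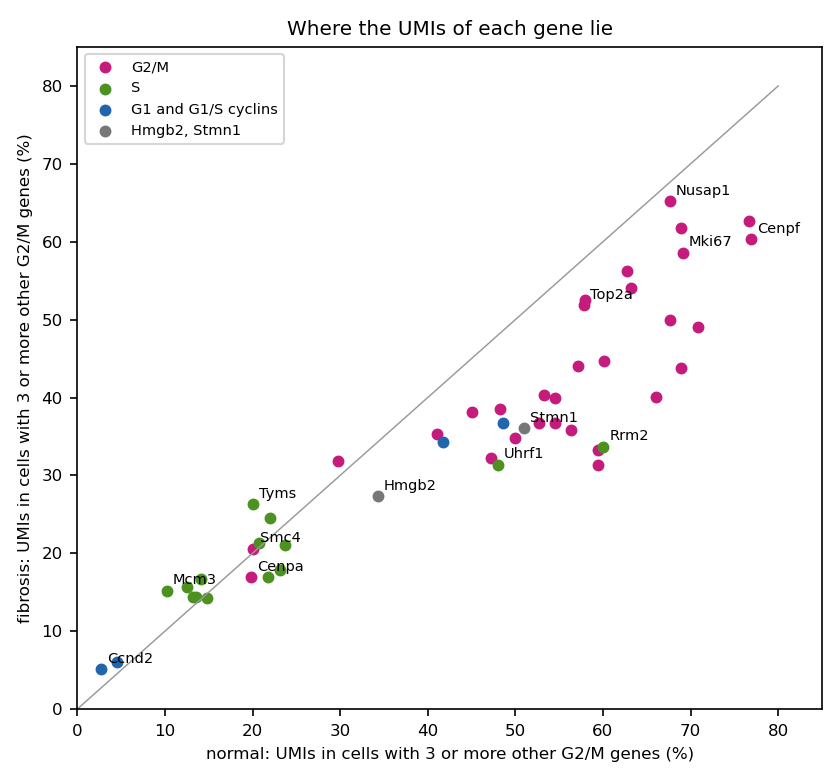
Percent of each gene's UMIs (cells thinned to 1000 UMIs) in cells with at least 3 other G2/M genes, normal library on the x axis and fibrosis library on the y axis, 1 point per gene, coloured by list, with the line of equal shares. G2/M genes spread to 76.9% with most points under the line, Cenpa and Smc4 lie among the S genes, and Ccnd2 lies near the origin.

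Several classes were too small, or named in 1 library only, for a ratio. Fibroblast-like cells held 0 of 44 normal cells with 3 G2/M genes, which allows up to 6.82%, and 10 of 92 fibrosis cells (10.9%; 5.34 to 19.1%). Mesothelial-like cells held 0 of 45 and 11 of 78 (14.1%; 7.26 to 23.8%). At 6 genes the fibrosis shares were 9.78% and 6.41%. Hepatocyte-like cells, named in fibrosis only, held 29 of 135 (21.5%; 14.9 to 29.4%), of which 17 had exactly 3 genes, and 5.19% (7 cells) at 6 genes. They had Birc5 (2.19), Mki67 (2) and Ube2c (1.77) as the G2/M genes of highest level and Stmn1 at 5.27 UMIs per 10000. Plasma-cell-like cells, named in the normal library only, held 18 of 115 (15.7%; 9.55 to 23.6%), led by Mki67 at 3.97. Erythroid-like normal cells held 1 of 348 (0.287%), yet Ube2c had 1.05 UMIs per 10000 there, above its level in normal stellate-like cells (0.649).

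Further genes of the cycle, 160 in lists drawn up with earlier results known, were up most often in cholangiocyte-like and stellate-like cells. In stellate-like cells 60 of the 160 that had 10 UMIs were up (37.5%, all genes 5.89%) and 1 was down, with a median ratio of 2.09 for the 71 further G2/M genes and 1.61 for the 62 further S genes. Largest were Mybl2 (0 and 60 UMIs, at least 3.33-fold higher with 3 UMIs taken for the normal library; lower end of the interval 2.62), Exo1 (6.15; 1.64 to 51.7) and Gins1 (5.74; 1.53 to 48.3), and smallest Cdkn1c (0.411), Cit (0.724) and Pttg1 (0.725). In cholangiocyte-like cells 86 of 155 were up (55.5%, all genes 5.52%) and 1 down, with Ncapg (12.4), Pclaf (8.43) and Mybl2 (8.20) largest and Cdkn1c (0.394), Cdkn2d (0.568) and Pttg1 (0.619) smallest. In endothelial-like cells 11 of 160 were up (6.88%) and 5 down (3.12%), against 6.08% and 8.89% of all genes. All 11 were among the 62 further S genes (17.7%, median ratio 1.46), and 0 of the 71 further G2/M genes were up (median ratio 0.906). The extremes were Orc1 (3.36), Cdca7 (3.30) and E2f1 (3.11), and Pif1 (0.365), Cdkn1c (0.369) and Psrc1 (0.375). Cdkn1c, the p57 inhibitor of cyclin-dependent kinases, was thus lower past the fold in these 3 classes, and also in NK/T-like (0.404) and Kupffer-cell-like cells (0.202).

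In the remaining classes the counts up lay near or below the share of all genes, apart from plasmacytoid-dendritic-like cells and, less so, NK/T-like cells. Kupffer-cell-like cells had 4 up (2.56%, all genes 3.68%) and 7 down (4.49%, all genes 8.52%) of 156, with the inhibitors Cdkn2a (5.88; 2.97 to 12.9) and Cdkn1a (2.93) and Cdc25c (2.89; 0.856 to 12.4) largest, and Fbxo5 (0.238) and Dtl (0.350) smallest after Cdkn1c. NK/T-like cells had 20 up (12.7%, all genes 9.69%) and 1 down of 158, with Gins1 (3.50), Rad54l (3.44) and Cdkn1a (3.14) largest, and Pif1 (0.323; 0.0606 to 1.12) and Mcm10 (0.545) smallest beside Cdkn1c. B-cell-like cells had 13 up (8.72%, all genes 9.53%) and 7 down (4.7%, all genes 7.54%) of 149, with Ncapg2 (4.27), Espl1 (3.79) and Spc25 (3.61) largest and Mxd3 (11 and 0 UMIs, at most 0.603 with 3 UMIs taken for fibrosis; upper end of the interval 0.882), Mcm10 (0.216) and Cit (0.229) smallest. Plasmacytoid-dendritic-like cells had 21 up (16.3%, all genes 10.1%) and 5 down of 129, with Shcbp1 (10.9; 1.51 to 477), Pbk (6.05) and Chaf1a (5.75) largest and Cdkn3 (0.173), Dlgap5 (0.346; 0.0829 to 1.10) and Cks1b (0.436) smallest. Neutrophil-like cells had 12 up (13%, all genes 12%) and 4 down of 92, with Mad2l1 (7.49), Knstrn (5.62) and Ckap2l (4.21) largest and E2f8 (0.140), Gins4 (0.301; 0.0554 to 1.08) and Spc24 (0.374; 0.0905 to 1.18) smallest. Dendritic-like cells had 3 up (1.9%, all genes 6.1%) and 1 down of 158, with Orc1 (3.42; 0.915 to 15.5), Depdc1b (3.42) and Rad54l (2.18) largest and Pif1 (0.474; 0.138 to 1.33), Cenpm (0.481) and Chaf1b (0.538) smallest. Monocyte/macrophage-like cells had 3 up (1.9%, all genes 9.76%) and 10 down (6.33%, all genes 9.8%) of 158, with Cdkn2a (5.97; 1.02 to 240.0, from 1 normal UMI), Shcbp1 (2.61; 0.982 to 9.80) and Orc1 (2.49; 0.398 to 103) largest and Gins3 (0.362), Btg2 (0.377) and Cdkn2d (0.401) smallest.

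Depth and stray RNA differed between the mice beside these values. In B-cell-like cells without 3 G2/M genes the 15 stellate markers summed to 1.81 UMIs per 10000 in the normal mouse and 10.0 in the other, and in endothelial-like cells the 14 hepatocyte markers to 203 and 15. The part of such RNA in the low shares was not tested.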

How the data were processed

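Libraries were made with 10x Chromium 3′ reagents from liver NPCs, 1 from a normal and 1 from a fibrosis mouse. According to the submitters' processing notes, reads were aligned to mm10 with Cell Ranger 3.0.1; the authors deposited raw UMI counts per gene and cell. The 50 genes, their phase lists, the further cell cycle lists and the marker lists were chosen with earlier results of these data known.

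Following the study's filter, a cell was kept if mitochondrial UMIs were below 10% and more than 200 genes were detected. Clusters were made per library (2000 variable genes without cell cycle and histone genes, 10 principal components, 20 neighbours, Leiden resolution 1.5; Python 3.11.15, scanpy 1.11.5, leidenalg 0.10.2, scipy 1.17.1). Class names followed the markers among a cluster's top 30 genes by fold (at least 2 there and 3 raised), and a cluster stayed unnamed if another class had more markers in the top 10, or if it was shallow with none there. Scrublet, which the study used to exclude doublets, called 3 normal and 1 fibrosis cell here (0.0402% and 0.0163%), too few to rely on. The tables hold as many cells as the study clustered, and whether doublets had been removed before deposit is not given in the sources used here. No further cell was removed, and its scores served as an alternative.

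Levels have exact Poisson, ratios exact conditional binomial and shares Clopper-Pearson intervals; a count of 0 is given with a limit of 3 counts. Ratios used classes with at least 50 cells in both libraries. In each class values are given for genes past the fold and of highest level in each list, for the 10 genes with most UMIs and for Mki67, Top2a, Mcm5, Pcna, Ccnd1 and Ccnd2, with the 3 largest and smallest ratios of the further lists. No p-value was computed, since each condition has 1 library and cells are no replicates. The ratio calls were tested on data simulated for endothelial-like cells only, where 200 of 200 changed and 15 of 12142 unchanged genes passed the fold. This gives no rate for other classes, such as fibrosis cholangiocyte-like cells, where 3 cells held 63.1% of the G2/M UMIs. Alternatives changed 1 choice at a time. Promoter sequences are RefSeq's (GRCm38.p6); coordinates are 1-based.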

Additional observations from a re-analysis of the deposited data

Results flagged for a closer look

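The fibrosis cells that got no class name held the G2/M list at 9.24 UMIs per 10000 (8.87 to 9.62) and the S list at 6.94 (6.62 to 7.27), above the 4.87 and 2.51 of the unnamed normal cells. These 1072 fibrosis and 1083 normal cells are in no comparison between classes and were shallow, with a median of 1303 and 1454 UMIs. They are unlike groups: outside cells with 3 G2/M genes the 14 hepatocyte markers summed to 34.8 UMIs per 10000 in fibrosis and 1340.2 in normal cells, and 1 normal cluster of 103 deep cells (median 10270.0 UMIs) led by Fgb stood at 0.681 UMIs per 10000 for the G2/M list, against 3.62 to 10.3 in the other normal clusters and 6.85 to 12.8 in the fibrosis ones. At least 3 G2/M genes were held by 8.63% (64 of 742) and 5.36% (58 of 1083) of them after thinning, which left out 330 fibrosis cells as too shallow. The 305 fibrosis cells over the mitochondrial limit held the G2/M list at 8.17 UMIs per 10000 (7.79 to 8.57), against 7.17 (6.86 to 7.49) in the 659 such normal cells.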

How the results depend on the processing

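No paired analysis was possible because each condition has 1 library. The shares of normal and fibrosis cells with 3 G2/M genes were 6.74% and 16.6% at 2000 UMIs, 9.48% and 19.4% at 2 genes, 3.48% and 4.98% at 4 genes, 2.60% and 3.02% at 6 genes (chosen after seeing the data) and 5.61% and 11.6% at a mitochondrial limit of 5%. Those with 3 S genes were 6.10% and 12.8%, 6.95% and 13.1%, 1.03% and 1.80%, and 0.147% and 0.367% under the first 4 of these settings. Fibrosis was higher under each setting. The stellate-like G2/M ratio was 4.47 per cell, 3.73 without the 3 cells of most G2/M UMIs and 3.05 without the 5% of cells of highest doublet score, and the endothelial-like S ratio 2.61 per cell and 1.47 at a mitochondrial limit of 5%. Summed over classes, 110 genes were up and 14 down past the fold. The count up was 187 per cell, 68 (in 7 classes) at the 5% limit and 175 at a fold of 1.5. The count down was 8 without the 3 top cells, 25 with 30 principal components, 26 at the 5% limit, 9 without high doublet scores and 29 at a fold of 1.5.

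Of 154 alternatives to the list ratios of classes, 90 stayed within their interval and 52 moved outside it, while 12 turned a ratio whose interval excluded 1 to the other side of 1. A further 7 crossed 1 from an interval that held 1. These were the monocyte/macrophage-like G2/M ratio (1.85 per cell, 1.32 without the 3 top cells, 1.06 at resolution 0.8, 1.04 at 2.5 and 1.01 with naming by the top 10 genes) and S ratio (0.776 with 30 principal components), and the B-cell-like G2/M ratio (0.747 per cell, against 1.49 without the 3 top cells and 1.23 without high doublet scores). The 12 were the G2/M ratio of Kupffer-cell-like cells at the 5% limit (0.838) and at resolution 2.5 (0.904), and of NK/T-like cells per cell (0.931) and at the 5% limit (0.854). The G2/M ratio of dendritic-like cells was 0.809 per cell, 0.986 without the 3 top cells, 0.833 with 30 principal components, 0.973 without high doublet scores and 0.648 at resolution 2.5. The G2/M ratio of endothelial-like cells was 1.24 per cell, and the S ratio was 1.74 per cell in Kupffer-cell-like and 0.937 in dendritic-like cells. Counts per cell follow depth, which differs between the libraries; the cause of the other changes was not tested. At the 5% limit B-cell-like, plasmacytoid-dendritic-like and stellate-like cells gave no value, with under 20 cells in a library.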
